A study of Mus musculus with 24 samples.

Results

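Whether the transcriptional effect of the αGlu antisense oligonucleotide (ASO) repeated was examined by setting its effect in batch 1 against its effect in batch 2, as (αGlu minus Ctr in batch 1) minus (αGlu minus Ctr in batch 2). All 24 libraries of the mouse islet table entered, out of 24 in the series, and they were assigned by their labels alone: 6 Ctr and 6 αGlu libraries in batch 1 (S1 to S12) and 6 and 6 in batch 2 (S13 to S24). Dispersed islet cells of wild type mice were transfected with 50 pmol of either a control ASO (Ctr) or the αGlu ASO, and then kept for 48 h with 0.5 mM palmitate bound to BSA (PA) or with 0.75% fatty-acid-free BSA alone. Each combination of ASO and medium had 3 libraries per batch, and medium was a covariate in every fit. The age and sex of the mice behind each library are not given in the labels, and neither is what a batch was, so that cells, day, transfection and sequencing cannot be told apart within it. The labels do not tie libraries to animals. The study's reporting describes each replicate of primary cells as made from another animal, with the groups of a replicate taken from the same one, but no label says which libraries share an animal. The fits therefore treat the libraries as unpaired, and overlap of groups does not describe pairs. Each group of 6 joins 3 BSA and 3 PA libraries, and those of the same animal would enter it as separate replicates. A group may thus hold fewer than 6 independent preparations. Every SE and p value below treats the libraries as independent, and may be misstated where libraries share an animal. The cells were dispersed and lipid-transfected, and what follows holds for that preparation.

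5′tRNA-derived fragments (5′tRFs) are short RNAs cut from the 5′ part of mature tRNAs, and the fragment of tRNA-Glu with the anticodon CTC is the one the αGlu ASO is directed to. An ASO built with locked nucleic acids binds its target by base pairing and blocks it. The fragment itself is not measured by libraries made from polyadenylated RNA, so the block could not be checked here, and the ASO and the target stretch are shown for the pairing on which the experiment rests, with the paired bases in capitals.
αGlu ASO, 5′ to 3′: TAACCACTAGACCACCAGGG
5′tRF-Glu(CTC), 5′ to 3′: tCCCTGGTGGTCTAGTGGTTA
The 20 bases of the ASO are the reverse complement of bases 2 to 21 of the target stretch shown, which is shorter than the fragments the study describes. Islets hold endocrine cells together with macrophages, endothelial cells, fibroblasts and the Schwann cells that sheathe islets and their nerves, and the latter share many marker genes with enteric glia (Sox10, Foxd3, S100b, Gfap). Every nucleated cell can mount an interferon response, in which Stat2 and Irf9 carry the signal to the nucleus and Irf7, the Oas genes and Ifit1 are induced.

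Library totals ran from 18214719 to 35001979 counts, and 17367 to 20051 genes had at least 1 count. Totals of αGlu and Ctr libraries were not distinguished in batch 1 (two-sided exact permutation test, p = 0.548) or batch 2 (p = 0.857), nor were totals of the batches (permutation test, p = 0.792). The insulin genes, which define β-cells, were high in every library: Ins2 ranged from 41237 to 79450.0 counts per 1000000 reads (CPM). Some markers of other cells differed between batches or stood apart in a library, and their part in the results below was not tested except where a value without that library is given. The summed level of 30 acinar genes had group medians of 9969 and 11995 CPM in batch 1 and of 716 and 784 CPM in batch 2. In S21 (Ctr BSA, batch 2) the macrophage genes summed to 610.4 CPM against a median of 186 CPM in its group, and in S23 (Ctr PA, batch 2) the mitochondrially encoded genes summed to 92992 CPM against a median of 49369 CPM.

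Of the genes that the αGlu ASO lowered in batch 1, about as many were called again in batch 2 as were not, while few of the genes it raised were called again. A gene was called when its fold change exceeded 2 with an unadjusted p below 0.05 in edgeR's quasi-likelihood test, over 16580 genes tested, and each adjusted p below is that test's p after Benjamini-Hochberg adjustment over all of them. Batch 1 gave 104 genes lower (0.627% of the genes tested) and 41 higher (0.247%), and batch 2 gave 145 lower (0.875%) and 32 higher (0.193%). Of the 104 genes lowered in batch 1, 83 (79.8%) were also lower in batch 2 and 51 (49.0%) were called there, against 51.6% of all genes lower in batch 2 and the 0.875% called. Of the 41 genes raised in batch 1, 18 (43.9%) were also higher in batch 2, 5 (12.2%) were called and 2 were called in the opposite direction, against 48.4% of all genes higher in batch 2. Read the other way, 129 of the 145 genes lowered in batch 2 (89.0%) and 17 of its 32 raised genes (53.1%) had the same sign in batch 1. Since both batches share 1 estimate of the spread in that fit, each was also fitted alone, and 52 of 95 lowered and 5 of 34 raised genes of batch 1 were then called in batch 2 as well.

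In all, 51 genes (0.308% of those tested) were called lower and 5 (0.0302%) higher in both batches. No gene passed a Benjamini-Hochberg adjusted p of 0.05 with edgeR in either batch or in the difference, where 665, 603 and 610 genes had an unadjusted p below 0.05 and 829 would be 5% of the genes tested. DESeq2 passed 19 genes in batch 1, 12 in batch 2 and 0 in the difference. Averaged over the batches, the ASO effect passed the adjusted threshold for 9 genes that rose (0.0543%) and 28 that fell (0.169%), and this count was 0 without S9 (Ctr BSA, batch 1), 0 without S21 and 82 without S17 (Ctr BSA, batch 2). Across all genes the log2 fold changes of the batches had a Pearson correlation of 0.278 and a Spearman correlation of 0.0171, and 48.6% of genes had the same sign. The 51 genes lowered in both batches had a median of 24.5 counts per library, beside 406 for all genes tested.

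**Figure D1:**
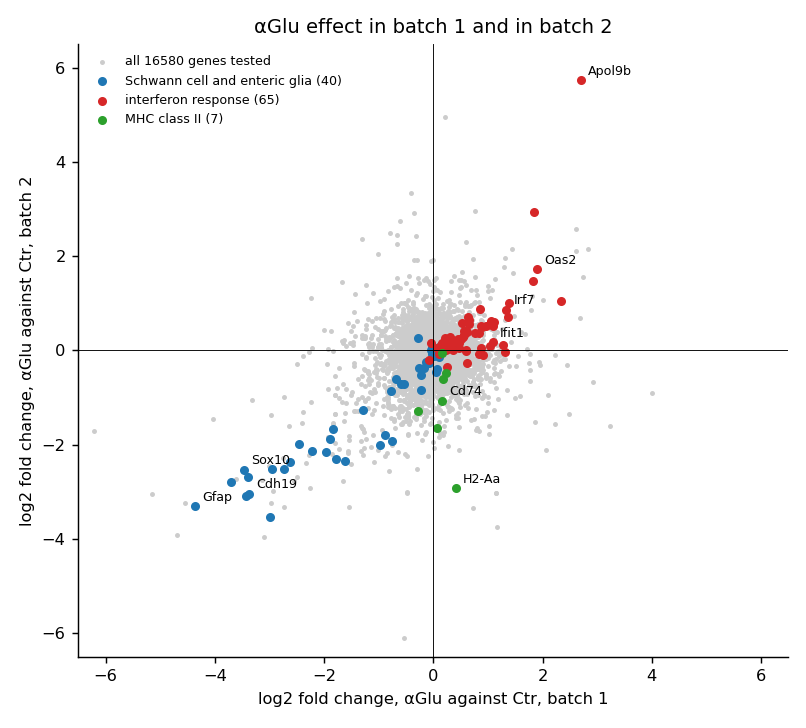
Log2 fold change of αGlu against Ctr in batch 1 (x axis) and batch 2 (y axis) for each gene tested, 6 v 6 libraries per batch; blue points are the 40 glial, red the 65 interferon-response and green the 7 MHC class II genes, and 4 genes lie outside the axes at ±6.5. Glial genes extend to the lower left and interferon genes to the right and upper right, with H2-Aa at 0.41 in batch 1 and -2.93 in batch 2, and Apol9b's value in batch 2 fitted against 0 counts in Ctr.

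Glial genes fell in both batches, and of the lists examined the one of Schwann cell and enteric glia genes had the lowest median in each. Of its 40 genes tested, 16 were called lower in batch 1 and 20 in batch 2, all 16 of the former in both, and none was called higher. Of all genes tested, 0.627% were called lower in batch 1, 0.875% in batch 2 and 0.308% in both. The median log2 fold change of the list was -0.83 in batch 1 and -1.46 in batch 2, beside -0.0019 and -0.0042 for all genes tested. The list holds 31.4% of the 51 genes lowered in both batches, and 35 of the 51 are on none of the lists used here. The list was drawn with earlier results of these data known. It holds genes that the study reported as lowered by αGlu under PA, among them Gdnf, Ngfr, S100b, Hand2, Foxd3, Cadm3, Gap43, Gpm6b and Gfap. The list's median, counts and share are therefore partly set by that choice and are no independent support. With an unadjusted p below 0.05 as the only criterion, which 369 genes met in batch 1 on the lower side (2.23%) and 405 in batch 2 (2.44%), 75 genes were lower in both (0.452%) and 20 of them were glial. Since the libraries are of bulk RNA, fewer glial cells and less RNA per glial cell cannot be told apart.

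The transcription factors that define neural crest-derived glia were called lower in both batches. Sox10 (ENSMUSG00000033006) in batch 1 ranged from 0.638 to 10.1 CPM with a median of 1.49 in the Ctr libraries and from 0 to 0.458 CPM with a median of 0.212 in the αGlu libraries, and in batch 2 from 0.184 to 9.15 CPM with a median of 4.89 in the Ctr libraries and from 0.0794 to 3.35 CPM with a median of 0.578 in the αGlu libraries. The groups did not overlap in batch 1 and overlapped in batch 2, where the Ctr library S17 held the lowest Ctr value and the αGlu library S14 the highest αGlu value. Its log2 fold change was -3.47 ± 0.89 (SE), adjusted p = 0.451, in batch 1 and -2.53 ± 0.79 (SE), adjusted p = 0.712, in batch 2. The other members of this group moved alike. Foxd3, which specifies the same lineage, gave -3.39 ± 0.96 (SE) and -2.68 ± 0.83 (SE), and Sox2, kept on in glial progenitors, -3.71 ± 0.98 (SE) and -2.80 ± 0.82 (SE).

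Surface and structural markers of glia followed the same pattern. Cdh19 (ENSMUSG00000047216), a cadherin of the Schwann cell lineage, ranged in batch 1 from 0.851 to 15 CPM with a median of 2.06 in the Ctr libraries and from 0 to 0.733 CPM with a median of 0.302 in the αGlu libraries. In batch 2 its values ran from 0.368 to 20.1 CPM with a median of 7.17 in the Ctr libraries and from 0.175 to 3.39 CPM with a median of 0.682 in the αGlu libraries. Again batch 1 showed no overlap, and again S17 among the Ctr libraries and S14 among the αGlu libraries were the extreme libraries of the overlap in batch 2. Cdh19 fell by 3.38 ± 0.85 (SE) on the log2 scale in batch 1 (adjusted p = 0.451) and by 3.04 ± 0.76 in batch 2 (adjusted p = 0.452), and the difference was -0.33 ± 1.11 (SE), adjusted p = 0.998. S100b, a calcium-binding protein of glia, gave log2 fold changes of -2.62 ± 0.66 (SE) and -2.36 ± 0.62 (SE), and Gfap, a glial intermediate filament named after its values were seen, -4.37 ± 1.22 (SE) and -3.31 ± 0.98 (SE). Ngfr, the low-affinity neurotrophin receptor, ranged in batch 1 from 2.3 to 33.3 CPM with a median of 6.43 in the Ctr libraries and from 0.251 to 3.39 CPM with a median of 0.873 in the αGlu libraries, and the groups overlapped in both batches. It gave -2.96 ± 0.80 (SE), adjusted p = 0.473, and -2.52 ± 0.74 (SE), adjusted p = 0.646.

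Genes of nerve growth and neurotrophic signalling were also lower in both batches. Gap43, a protein of growing axons and of Schwann cells, gave log2 fold changes of -1.89 ± 0.48 (SE) and -1.88 ± 0.47 (SE). For Gdnf, a ligand of the Ret receptor, the values were -2.74 ± 0.72 (SE) and -2.52 ± 0.67 (SE). Hand2, a transcription factor of autonomic neurons, gave -1.78 ± 0.50 (SE) and -2.31 ± 0.49 (SE). Edil3, an integrin-binding matrix protein, ranged in batch 1 from 1.99 to 10.8 CPM with a median of 3.16 in the Ctr libraries and from 0.347 to 1.9 CPM with a median of 0.954 in the αGlu libraries, without overlap, and its fold changes were -1.96 ± 0.54 (SE) and -2.16 ± 0.51 (SE). Kcna1, a voltage-gated potassium channel, gave -3.43 ± 0.90 (SE) and -3.09 ± 0.80 (SE).

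Outside the list, other genes called lower in both batches were Olfml2a (-2.28 ± 0.60 (SE) and -2.21 ± 0.58 (SE)), Gas7 (-2.49 ± 0.71 (SE) and -2.70 ± 0.69 (SE)) and the neural adhesion gene Chl1 (-1.79 ± 0.51 (SE) and -1.97 ± 0.49 (SE)). Among the 51 genes the estimates of the difference between batches ran from -4.52 to 1.29 (the lower end being Vip, a neuropeptide gene with 0 counts in most libraries), no gene had a difference with an unadjusted p below 0.05, and the median SE of the difference was 1.03. Fold differences of more than 2 between batches were thus within the error for most of these genes. The 51 were picked for being called lower in both batches, which itself disfavours a large difference, so its absence is no separate evidence of a repeat.

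Per library, the mean log2 CPM of the glial list separated the ASO groups fully in batch 1, from 1.24 to 3.0 in Ctr and from 0.20 to 1.08 in αGlu libraries. In batch 2 it ran from 0.81 to 3.22 in Ctr and from 0.41 to 1.94 in αGlu libraries. The groups of batch 2 overlapped through the Ctr library S17, the lowest of its group, and the αGlu library S14, the highest of its group. The highest Ctr libraries were S9 in batch 1 and S21 in batch 2, both Ctr BSA. Without S9 and S21 together, a choice made after seeing the data, 14 glial genes were still called lower in both batches, and without S21 and S23 the number was 13.

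**Figure D2:**
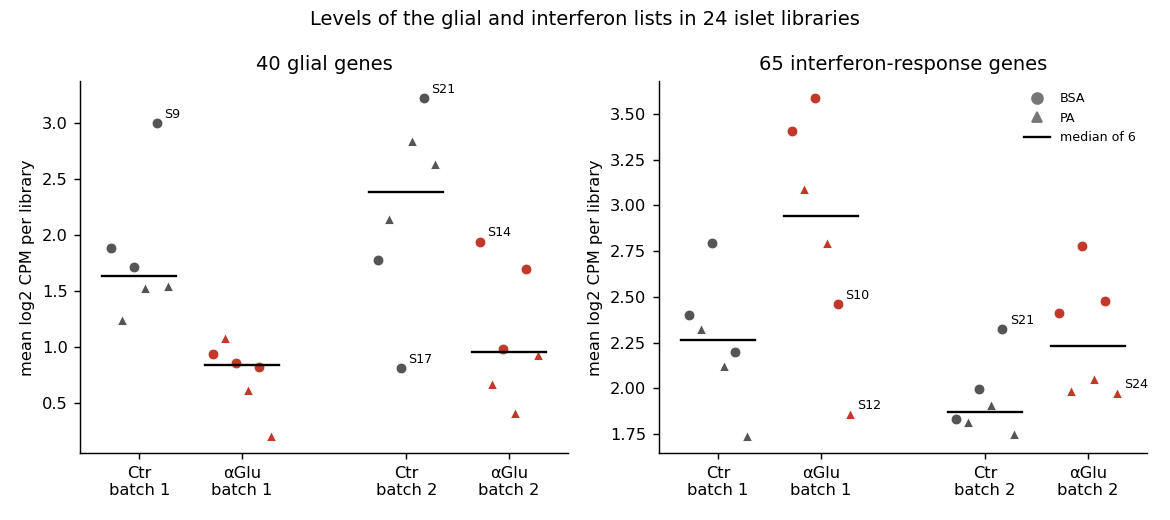
Mean log2 CPM of the Schwann cell and enteric glia list and of the interferon response list (y axes) in each of the 24 libraries, by batch and ASO (x axis), with circles for BSA, triangles for PA and a line at the median of 6 libraries. Glial levels of batch 1 run from 1.24 to 3.0 in Ctr and from 0.20 to 1.08 in αGlu libraries, whereas interferon levels overlap between the ASO groups in both batches.

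The glial effect was also examined within each medium. In batch 1 the median of the list was -1.21 in BSA and -0.32 in PA, and in batch 2 it was -0.65 in BSA and -2.24 in PA, with 3 v 3 libraries each. The test of this difference of ASO effects, (BSA minus PA in batch 1) minus (BSA minus PA in batch 2), called 9 of the 40 glial genes lower, beside 132 of all genes tested (0.796%), and no gene of the table passed an adjusted p of 0.05 with edgeR (287 at an unadjusted p below 0.05; no other tool was run on it). Within BSA, 208 genes were called in batch 1 and 98 in batch 2, of which 14 were lower in both, 7 higher in both and 3 opposite. Within PA, 126 and 288 were called, of which 22 were lower in both, 1 higher in both and 3 opposite. For the glial list in BSA of batch 2, the mean log2 CPM in Ctr was 1.78 (S13), 0.81 (S17) and 3.22 (S21). In αGlu it was 1.94 (S14), 0.98 (S18) and 1.69 (S22), so that only S21 lay above all of the αGlu libraries.

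Of the 65 interferon-response genes tested, 17 rose in both batches at an unadjusted p below 0.05. In sign, 63 were higher in batch 1 and 55 in batch 2, beside 8160 and 8031 of all 16580 genes. The median log2 fold change was 0.55 in batch 1 and 0.19 in batch 2, and 12 members were called higher in batch 1 and 4 in batch 2, none lower. Of all genes tested, 0.247% were called higher in batch 1 and 0.193% in batch 2. At an unadjusted p below 0.05, 43 members were higher in batch 1, where 296 of all genes (1.79%) were, and 17 in batch 2, where 198 (1.19%) were. All 17 were among the 43, and they made up 85% of the 20 genes (0.121% of those tested) that were higher with p below 0.05 in both batches. The others were Adar, an RNA-editing enzyme, Nkiras2 and Gm20662, which were named after their values were seen. Like the glial list, the interferon list was drawn with earlier results of these data known. Its median, counts and share may be partly set by that choice and are no independent support. The 17 genes became 10 without S21, and between 13 and 20 without any other library. Within each medium, with 3 v 3 libraries, the median of the list was 0.59 in BSA and 0.41 in PA in batch 1, and 0.31 in BSA and 0.11 in PA in batch 2. In PA of batch 2, Irf7, Oas2, Irf9 and Stat2 did not have an unadjusted p below 0.05, and the difference between media was not tested for these genes.

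Irf7 (ENSMUSG00000025498), a transcription factor that amplifies type I interferon production, was raised in both batches. In batch 1 it ranged from 2.19 to 5.13 CPM with a median of 3.76 in the Ctr libraries and from 2.47 to 14.8 CPM with a median of 9.64 in the αGlu libraries, and in batch 2 from 1.82 to 3.14 CPM with a median of 2.1 in the Ctr libraries and from 2.26 to 5.92 CPM with a median of 4 in the αGlu libraries. In both batches the lowest αGlu libraries, S12 and S24, reached into the Ctr range. Its log2 fold change was 1.33 ± 0.26 (SE), adjusted p = 0.137, in batch 1 and 0.86 ± 0.27 (SE), adjusted p = 0.712, in batch 2. The genes that carry interferon signals, Irf9 and Stat2, rose by 0.62 ± 0.13 (SE) and 0.50 ± 0.10 (SE) in batch 1 and by 0.38 ± 0.13 (SE) and 0.23 ± 0.10 (SE) in batch 2.

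Oas2, a sensor of double-stranded RNA that makes the activator of RNase L, rose in both batches. Its values ran in batch 1 from 0.279 to 2.57 CPM with a median of 1.29 in the Ctr libraries and from 0.766 to 9.43 CPM with a median of 5.6 in the αGlu libraries, and in batch 2 from 0.368 to 1.07 CPM with a median of 0.883 in the Ctr libraries and from 1.17 to 4.41 CPM with a median of 2.93 in the αGlu libraries. The groups of batch 2 were separate, and in batch 1 some αGlu libraries lay among the Ctr libraries. The log2 fold changes were 1.91 ± 0.48 (SE), adjusted p = 0.451, and 1.73 ± 0.51 (SE), adjusted p = 0.646, and the difference between batches was 0.18 ± 0.70 (SE), adjusted p = 0.998. Its relative Oas3, named after its values were seen, gave 1.82 ± 0.56 (SE) and 1.47 ± 0.57 (SE). Oas1a, which can share reads with other Oas1 copies, gave 1.11 ± 0.29 (SE) and 0.60 ± 0.29 (SE), adjusted p = 0.998, and the latter had an unadjusted p below 0.05 that rose above it under upper-quartile scaling.

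Apol9b and Apol9a, interferon-induced apolipoprotein L genes that resemble each other closely and can share reads, were the other members called in both. Apol9b had a log2 fold change of 2.70 ± 0.72 (SE), adjusted p = 0.504, in batch 1. In batch 2 it had 0 counts in all 6 Ctr libraries and 38 in the αGlu libraries, at least 12.9-fold higher with 3 counts over the Ctr group as the floor. Apol9a gave 1.83 ± 0.70 (SE) and 2.94 ± 1.02 (SE), at group medians of at most 1.12 CPM. The immunity-related GTPase gene Irgm2 rose by 0.55 ± 0.12 (SE) and 0.41 ± 0.13 (SE), and Xaf1, a pro-apoptotic factor, by 1.06 ± 0.27 (SE) and 0.63 ± 0.28 (SE).

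For 6 of the 65 interferon genes the effect was larger in batch 1 by the test of the difference, where 256 of all genes (1.54%) were higher and 354 (2.14%) lower, and none was larger in batch 2. Parp14 (ENSMUSG00000034422), an ADP-ribosyltransferase, ranged in batch 1 from 45.4 to 53.8 CPM with a median of 49.3 in the Ctr libraries and from 51 to 87.4 CPM with a median of 66.1 in the αGlu libraries, with some overlap. In batch 2 the ranges lay over each other, from 44.1 to 53.4 CPM with a median of 48 in the Ctr libraries and from 43.2 to 59.5 CPM with a median of 50.01 in the αGlu libraries. The log2 fold change was 0.47 ± 0.08 (SE), adjusted p = 0.137, against 0.05 ± 0.09 (SE), adjusted p = 0.998, and the difference of 0.42 ± 0.12 (SE), adjusted p = 0.998, kept an unadjusted p below 0.05 whichever library was left out. Ifit1, which binds foreign RNA lacking cap methylation, gave 1.08 ± 0.29 (SE), adjusted p = 0.47, and 0.17 ± 0.30 (SE), adjusted p = 0.998. Its difference was 0.91 ± 0.42 (SE), adjusted p = 0.998, and its unadjusted p below 0.05 was lost when any 1 of 7 libraries was left out. Trim25, a ubiquitin ligase of RNA sensing, rose by 0.27 ± 0.05 (SE) and 0.11 ± 0.05 (SE), with a difference of 0.16 ± 0.07 (SE), adjusted p = 0.998. The number of members with such a difference ran from 2 to 14 when single libraries were left out.

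**Figure D3:**
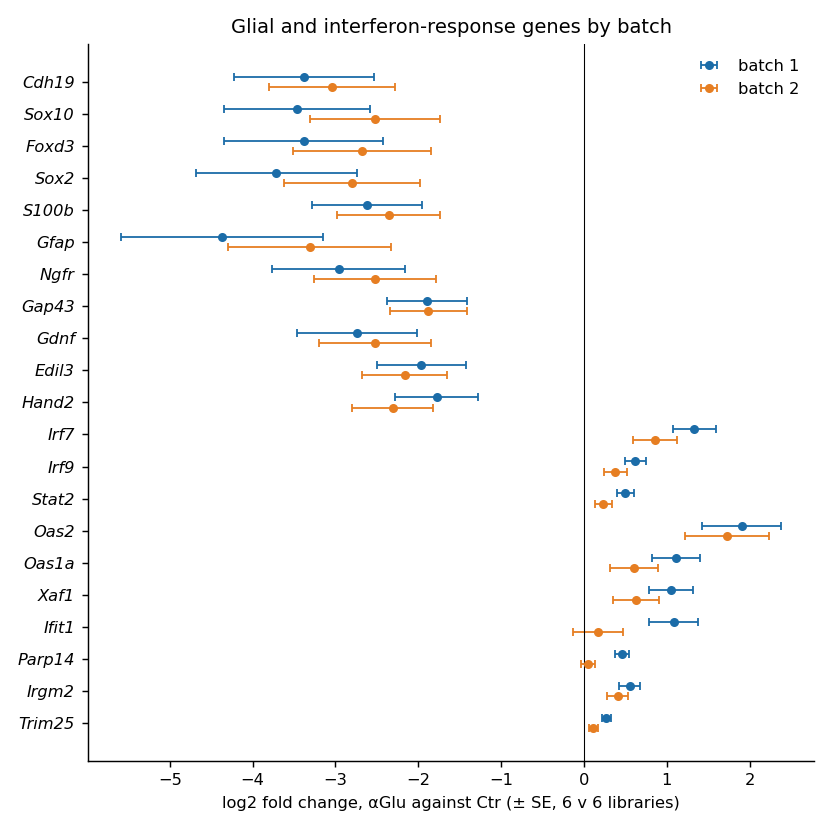
Log2 fold change of αGlu against Ctr ± SE (x axis) for 11 glial and 10 interferon-response genes (y axis) in batch 1 and batch 2, 6 v 6 libraries each. Points of both batches lie left of 0 for the glial genes and right of 0 for the interferon genes, with Ifit1 further right in batch 1 (1.08) than in batch 2 (0.17).

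Promoters of the interferon genes are shown because members moved together, and because the element that interferon-activated Stat and Irf complexes bind has a known core. The 10-letter pattern GAAANNGAAA was searched on both strands in windows from 250 bases before to 50 after the start site (RefSeq, GRCm38.p6). Of the 50 interferon genes with a window, 29 (58.0%) held it, against 0 of the 25 glial genes with a window and 459 of the 12465 tested genes with one (3.68%). Among the genes higher with p below 0.05 in both batches it was in 7 of 11 (63.6%), and among the other members in 22 of 39 (56.4%). A match describes these letters only. The list was picked as interferon-response genes, so a larger share than among all tested genes was built into it. That share says nothing of the ASO or of the batches. Whether the shares within the list differ was not tested. The windows of Oas3 (raised in both batches) and of Ifit1 (larger in batch 1) follow, with the pattern in capitals.
Oas3, chr5:120777610-120777909, minus strand: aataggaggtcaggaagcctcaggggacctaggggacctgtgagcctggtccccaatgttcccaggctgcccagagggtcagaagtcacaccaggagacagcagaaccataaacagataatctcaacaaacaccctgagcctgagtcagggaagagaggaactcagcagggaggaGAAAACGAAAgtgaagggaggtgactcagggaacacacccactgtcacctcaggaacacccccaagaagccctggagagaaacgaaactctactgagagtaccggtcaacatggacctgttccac
Ifit1, chr19:34640639-34640938, plus strand: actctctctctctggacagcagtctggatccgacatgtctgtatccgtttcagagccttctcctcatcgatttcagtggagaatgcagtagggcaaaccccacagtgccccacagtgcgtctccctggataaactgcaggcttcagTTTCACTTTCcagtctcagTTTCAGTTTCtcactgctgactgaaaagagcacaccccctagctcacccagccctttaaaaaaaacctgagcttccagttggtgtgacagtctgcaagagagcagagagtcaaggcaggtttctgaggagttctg

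In the test of the difference between batches, 62 genes (0.374%) had a fold change above 2 and p below 0.05 on the side of batch 1 and 54 (0.326%) on the side of batch 2. MHC class II genes, with which antigen-presenting cells display peptides, had medians of 0.15 in batch 1 and -1.07 in batch 2 over 7 genes, and 1 library set that difference. H2-Aa, the alpha chain of an MHC class II molecule, ranged in batch 2 from 0.106 to 9.22 CPM with a median of 0.299 in the Ctr libraries and from 0 to 0.553 CPM with a median of 0.158 in the αGlu libraries. S21 alone held the high Ctr value, and the other Ctr libraries lay within or near the αGlu range. The difference was 3.34 ± 1.32 (SE), adjusted p = 0.998, with an unadjusted p below 0.05, and without S21 it was 0.70 and no longer so. Cd74, the invariant chain that accompanies these molecules, gave a difference of 1.22 ± 0.53 (SE), adjusted p = 0.998, and of 0.47 without S21, when its unadjusted p also rose above 0.05. Over the list, the median in batch 2 became -0.10 without S21. The macrophage list moved likewise: 0.12 in batch 1, -0.46 in batch 2 and 0.16 in batch 2 without S21, with no member called in either batch.

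Tgfbi, an extracellular matrix protein induced by TGF-β, differed in the same direction. In batch 1 it ranged from 0.109 to 0.964 CPM with a median of 0.533 in the Ctr libraries and from 0.105 to 7.27 CPM with a median of 0.338 in the αGlu libraries, and in batch 2 from 0.358 to 12 CPM with a median of 1.14 in the Ctr libraries and from 0.202 to 3.02 CPM with a median of 0.619 in the αGlu libraries. S4 (αGlu PA) alone was high in batch 1 and S21 in batch 2. The log2 fold change was 2.22 ± 1.03 (SE), adjusted p = 1, in batch 1, where it was -0.01 without S4, and -1.56 ± 0.89 (SE), adjusted p = 0.998, in batch 2. The difference of 3.77 ± 1.36 (SE), adjusted p = 0.998, became 1.56 without S4, with an unadjusted p above 0.05.

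**Figure D4:**
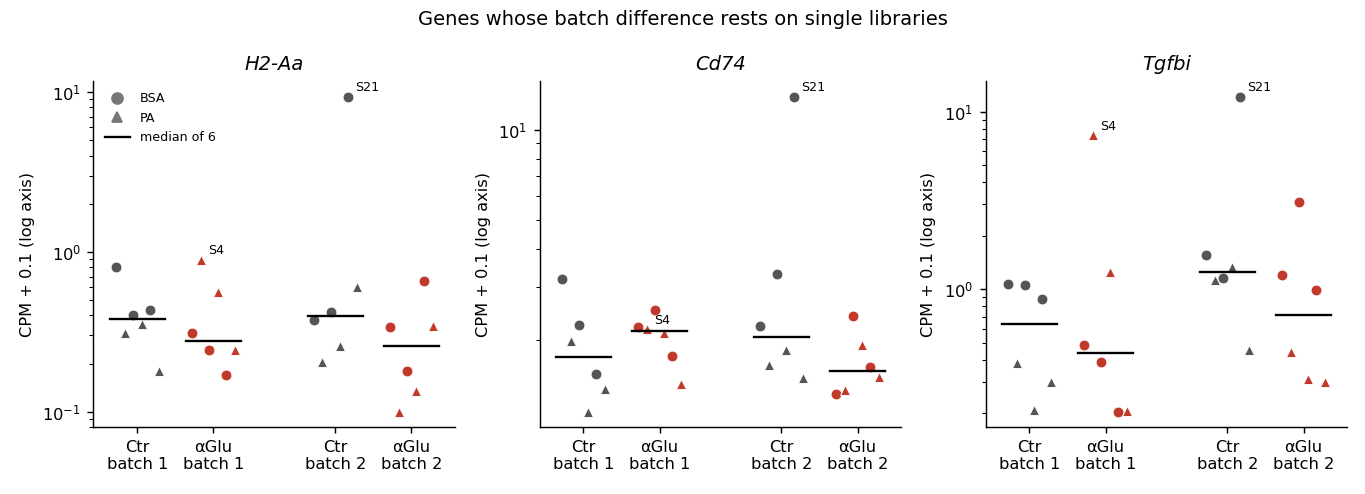
CPM plus 0.1 on a log axis (y) of H2-Aa, Cd74 and Tgfbi in each library, by batch and ASO (x axis). S21 stands above the other Ctr libraries of batch 2 for all 3 genes (9.22, 12.8 and 12 CPM), and S4 above the other αGlu libraries of batch 1 for Tgfbi (7.27 CPM).

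2 genes were called in opposite directions in the batches. Srpk3, a kinase of splicing factors found in muscle, ranged in batch 1 from 0.0824 to 0.437 CPM with a median of 0.236 in the Ctr libraries and from 0.211 to 0.824 CPM with a median of 0.459 in the αGlu libraries, and in batch 2 from 0.092 to 1.79 CPM with a median of 0.512 in the Ctr libraries and from 0.0852 to 0.497 CPM with a median of 0.24 in the αGlu libraries, with overlap in both. Its log2 fold change was 1.11 ± 0.46 (SE), adjusted p = 1, and -1.27 ± 0.45 (SE), adjusted p = 0.967, and the difference was 2.38 ± 0.64 (SE), adjusted p = 0.998. It was no longer called in batch 1 without S10 or in batch 2 without S23, and the difference ran from 1.92 to 2.58 over the libraries left out. The other was Gm49804, named after its values were seen, a gene of fewer than 10 counts per library on average. It had 0 counts in all αGlu libraries of batch 2, so that its fitted difference of 11.60 is no measured size, and its change in batch 1 was -0.0048 without S10. Further genes past both thresholds of the difference, which were lower with αGlu in batch 2, were Xntrpc (-1.20 ± 0.26 (SE) against -0.01 ± 0.25 (SE) in batch 1), Adamtsl1 (-2.20 ± 0.45 (SE) against -0.52 ± 0.42 (SE)) and Nid1, a basement membrane glycoprotein (-1.49 ± 0.35 (SE) against -0.43 ± 0.34 (SE)). Differences in the other direction were seen for Tff1, a trefoil peptide of mucosal secretions (2.50 ± 0.86 (SE) in batch 2 against -0.79 ± 0.60 (SE) in batch 1), and Nutf2, a carrier of Ran into the nucleus (1.35 ± 0.47 (SE) against -0.72 ± 0.47 (SE)). For Nid1 the unadjusted p of the difference rose above 0.05 when any 1 of 13 libraries was left out. Leaving out S20 (αGlu PA, batch 2) took the batch 2 change of Tff1 to 1.55 and its unadjusted p above 0.05. By the smallest p of the difference, the rule also named Ddx17, an RNA helicase, with 0.12 ± 0.05 (SE) in batch 1 and -0.10 ± 0.05 (SE) in batch 2, Slc25a35, a mitochondrial carrier, with 0.26 ± 0.10 (SE) and -0.26 ± 0.10 (SE), and Txndc17, a thioredoxin-like protein, with -0.22 ± 0.07 (SE) and 0.14 ± 0.07 (SE).

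Small differences with a common sign were seen for the cytosolic ribosomal protein genes, a list added after the data were seen. All 77 genes tested were lower with αGlu in batch 1 (median -0.16), and 73 were higher in batch 2 (median 0.13). The difference had p below 0.05 on the side of batch 2 for 59 of them, beside the 354 of all genes (2.14%), and 27 were lower with p below 0.05 in batch 1 and 4 higher in batch 2. The 59 became 35 without S7, 38 without S4 or without S16, 39 without S23, and 22 without S21 and S23, and up to 72 without S15. Rpl35a, a protein of the large subunit, ranged in batch 1 from 132 to 172 CPM with a median of 145 in the Ctr libraries and from 105 to 134 CPM with a median of 126 in the αGlu libraries, and in batch 2 from 97.3 to 128 CPM with a median of 105 in the Ctr libraries and from 101 to 135 CPM with a median of 117 in the αGlu libraries. Overlap was present in both batches, and the difference was -0.39 ± 0.10 (SE), adjusted p = 0.998. Ribosomal protein genes have many processed pseudogenes that can share their reads, and with upper-quartile scaling or DESeq2 in place of TMM 56 and 62 of the genes had such a difference. The gene with the smallest p of the difference, Commd1, a regulator of copper handling and NF-κB, gave -0.20 ± 0.08 (SE) in batch 1 and 0.24 ± 0.08 (SE) in batch 2, with a difference of -0.43 ± 0.11 (SE), adjusted p = 0.998.

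**Figure D5:**
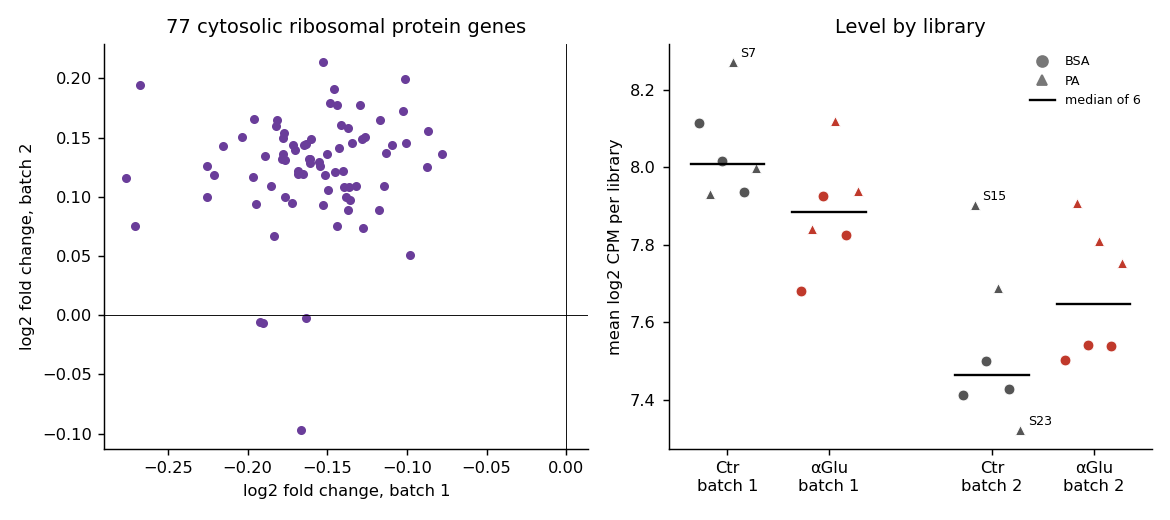
Log2 fold change of αGlu against Ctr of the 77 cytosolic ribosomal protein genes in batch 1 (x axis) and batch 2 (y axis). All 77 lie below 0 in batch 1 and 73 lie above 0 in batch 2.

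The hormone genes of the islet did not pass the test. Ins1 had log2 fold changes of -0.05 ± 0.09 (SE) and 0.14 ± 0.09 (SE), Ins2 of -0.06 ± 0.09 (SE) and 0.14 ± 0.09 (SE), and glucagon (Gcg) of -0.13 ± 0.14 (SE) and 0.06 ± 0.14 (SE). The unadjusted p of Ins1 in batch 2 fell below 0.05 when that batch was fitted alone. Of the 33 β-cell genes tested none was called in either batch, and the median was 0.05 in batch 1 and 0.04 in batch 2. The 18 genes of α-, δ- and PP-cells had medians of -0.12 and 0.10, and the 30 acinar genes of -0.27 and 0.05, with no gene called. Fibroblast and stellate matrix genes had medians of -0.04 and -0.12 over 43 genes, with 1 called higher in batch 1 and 1 lower in batch 2. Endothelial genes had medians of 0.18 and -0.22 over 24 genes, with 1 called lower in batch 2. Medians of the ductal, chemokine, cell cycle and immediate early lists lay between -0.12 and 0.08 with no gene called. Those of stress response, fatty acid oxidation and RNA-binding partner genes lay between -0.03 and 0.03, with 1 gene called higher in batch 1. The 13 mitochondrially encoded genes had negative values in both batches (medians -0.08 and -0.13) with none at p below 0.05, and without S23 their median in batch 2 was 0.07.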

How the data were processed

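mRNA sequencing was analysed for all 24 mouse islet libraries. The deposited table holds the counts of reads on exons per gene that the authors made with the QIAGEN RNA-seq Analysis Portal on GRCm38, as the submitters' processing notes give it, from stranded libraries. No source used here gives the aligner, annotation release or filters. Empty cells were read as 0, since the table writes no 0, and 72 columns of normalized values were not used. A line without a gene held 0 counts. Counts were scaled by TMM in edgeR 4.0.16 (R 4.3.3), and genes with low counts were left out by filterByExpr (minimum of 10 counts), which kept 16580 of 41549. A quasi-likelihood model with ASO, batch, their interaction and medium was fitted to all libraries, with DESeq2 1.42.0 as an alternative. The call rule was a fold change over 2 with p below 0.05 before adjustment. SEs were derived from the F statistic. CPM values use these scaled library sizes, and list levels are mean log2 CPM with a prior count of 2. The fit was tested on simulated data. Counts carry no molecular identifiers, and their total per library limits precision for low genes.

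The comparison, gene lists and named genes were chosen with earlier results of these data known. Named genes were, at a mean of at least 10 counts, those of smallest p among the genes called in each batch, in both, in opposite directions and in the difference, those of smallest p in each list, and a fixed set used earlier. The study's human, proteomic and small RNA data were not analysed here. Some members of the lists are counted but not reported by name.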

Additional observations from a re-analysis of the deposited data

Results flagged for a closer look

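In 156 groups of 6 libraries, the highest or lowest library was compared with its nearest neighbour by Dixon's test, and 10 groups (6.41%) had a library apart, where chance gives about 1 in 20 groups. Levels of genes are log2 of CPM plus 0.1, and those of lists are mean log2 CPM. Among the Ctr libraries of batch 2, S21 was apart for H2-Aa (3.22), Cd74 (3.68), Tgfbi (3.6) and Irf7 (1.7), and S23 for Ifit1 (2.85, the highest) and the immediate early list (2.95, the lowest). In batch 1, the Ctr library S9 was apart for the glial list (3.0), S1 for Ins2 (16.2) and S3 for Xntrpc (1.81, the lowest). Among the αGlu libraries of batch 2, S14 was apart for S100b (0.57).

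For 10 of the genes printed here the ASO effect differed between batches by more than 2-fold with an unadjusted p below 0.05. The log2 fold change in batch 1 minus that in batch 2 was 3.34 for H2-Aa, 1.22 for Cd74, 3.77 for Tgfbi, 2.38 for Srpk3, 1.18 for Xntrpc, 1.68 for Adamtsl1, 1.06 for Nid1, 11.60 for Gm49804 (a fitted value against 0 counts in the αGlu libraries of batch 2, and no measured size), -3.29 for Tff1 and -2.07 for Nutf2. No gene of the table passed an adjusted p of 0.05 in this test by edgeR or DESeq2, where 610 and 627 had an unadjusted p below 0.05.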

How the results depend on the processing

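The genes called numbered 145 in batch 1, 177 in batch 2, 116 in the difference and 56 in both batches in the same direction. Without a filter on low counts the first 3 were 556, 499 and 541, and with at least 10 counts in 12 libraries all 4 were 70, 99, 66 and 33. At an adjusted p below 0.05 all 4 were 0, and at an unadjusted p below 0.05 with any fold change they were 665, 603, 610 and 95. Without S9 and S21, chosen after seeing the data, 36 genes repeated. Leaving out 1 library at a time gave 112 to 180, 143 to 241, 89 to 149 and 42 to 64. The averaged effect passed an adjusted p of 0.05 for 37 genes, for 99 with DESeq2, 76 without a filter, 1 without S21 and S23, 0 without S9 and S21, and 0 to 82 with single libraries left out (22 to 24 without S2, S16 or S24, 63 without S13). For Tgfbi in batch 1 the log2 fold change ran from -0.0098 without S4 to 2.71, and for Gm49804 from -0.0048 without S10 to 5.77. Upper-quartile scaling, a mean for each of the 8 combinations of ASO, medium and batch, and separate fits kept the first 4 counts within 1.5 times. No paired analysis was possible because libraries are numbered S1 to S24, no number is shared between groups, and no label says which libraries came from the same animal. Depth limits genes of few counts: those called in batch 1 had a median of 14.2 counts per library, beside 406 for all genes tested.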
